A study of Mus musculus with 12 samples.

Results

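The nuclear-encoded genes of the mitochondrial respiratory chain were followed in uterine tissue of pregnant mice that overexpressed 1 isoform of the progesterone receptor. Genes were taken by symbol: Nduf genes of the a, b, c, s and v series (complex I), Sdha to Sdhd (complex II), Uqcr genes (complex III) and Cox4 to Cox8 genes (complex IV). The patterns matched 67 of the 24964 genes counted, of which 37 fell in complex I, 4 in complex II, 8 in complex III and 18 in complex IV. Ndufab1 and Cyc1, which also encode subunits, do not match the patterns and were not counted among them. At 13.5 days post coitum, RNA of 4 libraries per group, 12 in all, was sequenced. PGR-A OE mice carried Myh11Cre with 1 copy of the LSLPGRA allele, PGR-B OE mice carried Myh11Cre with 1 copy of the LSLPGRB allele, and control mice carried Myh11Cre alone, so all 3 groups shared the Cre. Cre under the smooth muscle myosin gene Myh11 acts in smooth muscle, vessel walls included, whereas the RNA came from uterine tissue with its other cell types. The labels name no separate animals, so p-values measure the spread between these libraries, part of which may be technical, and in such bulk RNA fewer cells of a type and less RNA per cell cannot be told apart.

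The respiratory chain passes electrons from NADH through complex I, and from succinate through complex II, to ubiquinone, then through complex III and cytochrome c to complex IV, where oxygen is reduced. Complexes I, III and IV pump protons across the inner mitochondrial membrane, and ATP synthase uses the gradient to make the ATP that muscle contraction spends. Most subunits are encoded in the nucleus, and several complex IV subunits exist in a broadly expressed form and a form used mainly in heart and skeletal muscle. The uterine muscle is smooth muscle and grows and remodels during pregnancy.

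Each library held 31872534 to 33078483 counts. Pgr, the gene of the receptor, had 165.8 to 254.8 CPM (edgeR's counts relative to the scaled library size) in PGR-A OE and 187.9 to 248.4 CPM in PGR-B OE, against 106.1 to 142.3 CPM in control. The summed level of 12 smooth muscle markers was 19400 to 27270 CPM in PGR-A OE and 14230 to 18830 CPM in PGR-B OE, against 14640 to 19240 CPM in control, and Myh11 itself had 2420 CPM or more in every library. PGR-A OE replicate 4 stood apart over all genes tested, at 62.4 on a first principal component that held 23.0% of the variance, with the other libraries between -31.0 (control replicate 4) and 7.58. The decidual prolactin gene Prl8a2 ran between 5.02 CPM in PGR-A OE replicate 4 and 5050 CPM in control replicate 4. Values for named respiratory chain genes that turn sign without those 2 libraries are given both ways.

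Respiratory chain genes were among the abundant transcripts of this tissue and differed widely among themselves. Of the 67 genes, 62 had enough counts to be tested, and Cox6a2, Cox8b, Cox8c, Cox7b2 and Ndufs5 did not. Per length as deposited (CPM per kilobase, averaged over the 12 libraries), the 62 had a median level of 65.7, against 6.58 over all 15561 genes tested; 60 of the 62 lay above that median and 47 were in the top 10% of genes. The exceptions were Cox4i2 and Cox7a1. With exon lengths of the annotation the medians were 39.2 for the 62 and 4.49 for 15379 genes, with 57 of the 62 above that median and 40 in the top 10%. By the deposited lengths, levels per kilobase had a median of 46.6 in complex I, 77.5 in complex II, 95.4 in complex III and 130.1 in complex IV. By the annotation lengths these medians were 30.3, 47.0, 66.6 and 62.2, so the order of complexes III and IV depended on the lengths. The levels that follow are by the deposited lengths. Complex IV held the widest span, with Cox6a1 (a small subunit in its broadly expressed form) at 267.5 ± 24.3, Cox4i1 (a regulatory subunit) at 262.9 ± 17.2 and Cox6c at 259.9 ± 36.6 CPM per kilobase at the top (SD, n = 12 libraries), and Cox7a1 at 1.34 ± 0.317 at the bottom. These top 3 levels differed by less than 1 SD; by the annotation lengths Cox6a1 and Cox7a1 remained the ends, and Cox6c was at 36.6 and Cox8a second, at 206.9. In complex I, levels per kilobase ran between 9.06 for Ndufb4, an accessory subunit of the membrane arm, and 184.1 for Ndufa4, a protein first assigned to complex I and later found in complex IV. By the annotation lengths Ndufb4 was again lowest, at 2.15, but Ndufa1 was highest, at 103.3, with Ndufa4 at 66.2. Another annotated gene, Ndufb4c, is identical to Ndufb4 over 390 bases, so the count of Ndufb4 and its place as lowest are uncertain. In complex II levels lay between 66.5 for Sdhc, a membrane anchor, and 90.8 for Sdhb, the iron-sulphur subunit, and by the annotation lengths between 24.1 for Sdhc and 86.1 for Sdhd. In complex III it lay between 29.7 for Uqcrq and 215.5 for Uqcrh, the hinge protein beside cytochrome c1.

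**Figure D1:**
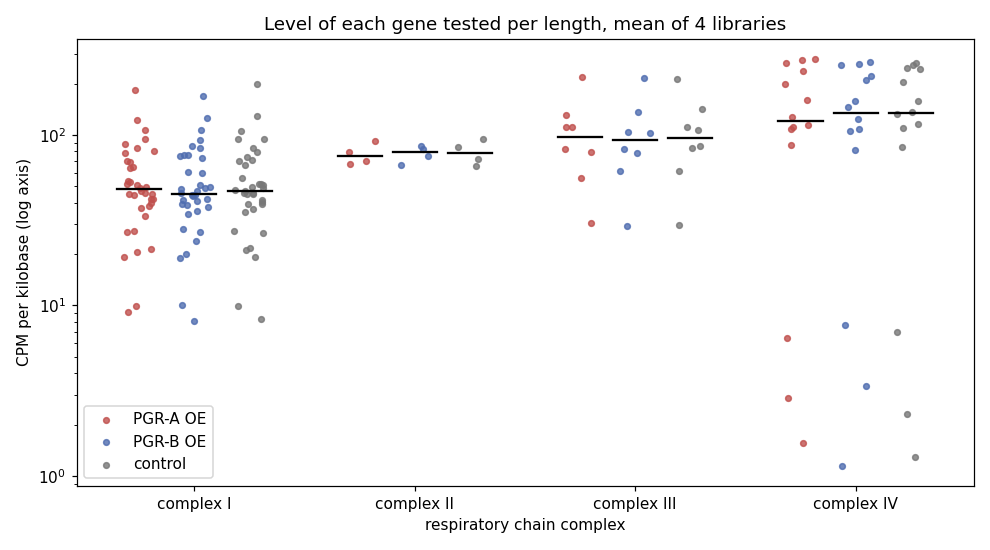
Level per length of the 62 genes tested, by complex (CPM per kilobase of deposited length on a log axis; points are genes, each the mean of 4 libraries; horizontal lines are the medians of a group). Complex IV reaches both the highest and the lowest levels, with Cox7a1 at the bottom, and the 3 groups lie side by side in every complex.

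The promoters of 4 genes are shown, picked for their values in these data. Cox6a1 has the highest level per length and Cox7a1 the lowest of the genes tested. Ndufa4 had the lowest p by edgeR in PGR-B OE against control. Sdhd had one of the highest weights on the first component of the variation between libraries. Each stretch is RefSeq's window of 250 bases before to 50 bases after the start of the transcript (GRCm38.p6), 5′ to 3′ on the gene's strand. The windows are chr5:115348909-115349208 on the minus strand for Cox6a1, chr7:30183921-30184220 on the plus strand for Cox7a1, chr6:11907401-11907700 on the minus strand for Ndufa4 and chr9:50603800-50604099 on the minus strand for Sdhd. Capitals mark matches, on either strand, to any of 4 motifs.
Cox6a1: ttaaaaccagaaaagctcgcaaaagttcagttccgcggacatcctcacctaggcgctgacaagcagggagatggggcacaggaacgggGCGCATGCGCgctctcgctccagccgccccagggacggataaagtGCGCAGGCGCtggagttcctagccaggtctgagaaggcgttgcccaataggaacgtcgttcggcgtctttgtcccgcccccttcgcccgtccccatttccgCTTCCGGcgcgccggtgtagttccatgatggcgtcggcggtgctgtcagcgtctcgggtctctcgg
Cox7a1: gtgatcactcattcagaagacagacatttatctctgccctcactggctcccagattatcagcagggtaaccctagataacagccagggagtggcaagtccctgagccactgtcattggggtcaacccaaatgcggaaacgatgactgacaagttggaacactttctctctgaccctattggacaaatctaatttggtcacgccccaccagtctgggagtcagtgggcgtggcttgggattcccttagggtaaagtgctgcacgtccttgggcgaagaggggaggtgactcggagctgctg
Ndufa4: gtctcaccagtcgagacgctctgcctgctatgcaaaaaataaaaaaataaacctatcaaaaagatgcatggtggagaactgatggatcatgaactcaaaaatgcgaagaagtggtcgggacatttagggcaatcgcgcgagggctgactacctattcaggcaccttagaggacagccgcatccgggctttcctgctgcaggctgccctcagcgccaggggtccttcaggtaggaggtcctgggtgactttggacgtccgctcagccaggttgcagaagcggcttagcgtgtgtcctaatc
Sdhd: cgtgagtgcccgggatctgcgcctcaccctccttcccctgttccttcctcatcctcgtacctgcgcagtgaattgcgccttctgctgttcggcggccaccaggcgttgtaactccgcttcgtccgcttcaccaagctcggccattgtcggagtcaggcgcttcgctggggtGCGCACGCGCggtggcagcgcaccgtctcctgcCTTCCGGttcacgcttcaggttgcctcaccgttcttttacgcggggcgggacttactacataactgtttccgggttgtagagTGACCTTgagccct
The motifs searched were GCGCA and GCGC parted by 1 base of any kind for NRF1, AAGGTCA for the oestrogen-related receptors, CCGGAAG for the ETS factor GABPA and AAGATGGC for YY1, factors known as regulators of nuclear genes for mitochondrial proteins. The Cox6a1 window held 2 NRF1 matches and 1 GABPA match, the Sdhd window held 1 match each to the NRF1, GABPA and receptor motifs, and the Cox7a1 and Ndufa4 windows held no match. Among windows not shown, that of the low-count Ndufb4 had NRF1 and receptor matches, and those of the abundant Cox5a and Cox5b had no match. Whether matches follow level was not tested. RefSeq promoters were matched for 53 of the 67 genes (55 windows), and 50.9% of these held at least 1 of the motifs, against 18.9% of all 32851 mouse promoters of the same length. The NRF1 motif was in 21.8% of the 55 windows and 4.60% of all windows, the GABPA motif in 20.0% and 8.86%, the YY1 motif in 12.7% and 2.75%, and the receptor motif in 7.27% and 4.72%. No window of the 55 had matches of different motifs that shared a base. The median GC content was 57.3% in the 55 windows and 52.7% in all windows, and its part in these shares was not tested.

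Of the subunit forms of heart and skeletal muscle, Cox6a2 and Cox8b were close to undetected in this uterine tissue, in all 3 groups. Cox7a1 was low but counted in every library. Cox6a2 (chromosome 7, 128205435 to 128206387, GENCODE on GRCm38), the muscle form of subunit 6A, had 5, 3, 2 and 6 counts in PGR-A OE, 3, 3, 8 and 4 in PGR-B OE, and 1, 5, 3 and 0 in control. Cox8b (chromosome 7, 140898945 to 140900446), the muscle form of subunit 8, had 2, 0, 0 and 3 counts in PGR-A OE, 1, 6, 3 and 3 in PGR-B OE, and 1, 0, 1 and 1 in control. Summed over a group, Cox6a2 came to 0.121 CPM (95% Poisson interval 0.0689 to 0.196) in PGR-A OE and 0.140 CPM (0.0827 to 0.221) in PGR-B OE, against 0.0705 CPM (0.0322 to 0.134) in control, and Cox8b to 0.0377 CPM (0.0122 to 0.0879) in PGR-A OE and 0.101 CPM (0.0537 to 0.172) in PGR-B OE, against 0.0235 CPM (0.00484 to 0.0686) in control. The intervals, which cover counting error only, overlap between the groups, for Cox8b in PGR-B OE and control only between 0.0537 and 0.0686 CPM. Such overlap does not show that levels were alike, and these differences were not tested. Cox6a2 overlaps the gene model of Itgad, and whether reads were counted by strand is not given in the sources used here.

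Cox7a1 (chromosome 7, 30184144 to 30186078), the muscle form of subunit 7A, was the most counted of the 3 and the only one tested. It had 0.524, 0.511, 0.546 and 0.705 CPM in PGR-A OE and 0.236, 0.447, 0.451 and 0.551 CPM in PGR-B OE, against 0.484, 0.445, 0.379 and 0.596 CPM in control. PGR-B OE replicate 1 was the lowest library, and the groups overlapped. Per length, Cox7a1 made up 1.53 to 2.33% of the sum of Cox7a1 and its broadly expressed partner Cox7a2 in PGR-A OE and 0.819 to 1.87% in PGR-B OE, against 1.28 to 1.61% in control. Cox6a2 made up at most 0.151% beside Cox6a1, and Cox8b at most 0.246% beside Cox8a, in any library. The 3 broadly expressed partners were abundant in every group: Cox6a1 averaged 157 ± 18.8 CPM in PGR-A OE and 148 ± 13.4 CPM in PGR-B OE, against 150.5 ± 10.3 CPM in control (SD, n = 4 each). Markers of striated muscle were uneven. Of 16 fixed as a list, Ckm (muscle creatine kinase) lay between 0.596 and 3.97 CPM, Mb (myoglobin) between 0.180 and 0.867 CPM and Myh7 (slow skeletal and cardiac myosin) between 0 and 0.0636 CPM over the 12 libraries. Others were higher, with Acta1 (skeletal muscle actin) at 103 to 216 CPM and the troponin genes Tnni2 at 15.7 to 37.4, Tnnt3 at 7.87 to 19.0 and Tnnt2 at 2.24 to 26.6 CPM. The list summed to 195.3 to 295 CPM in PGR-A OE and 189.6 to 272.5 CPM in PGR-B OE, against 176 to 236.9 CPM in control. Most of each sum was Acta1. Actc1, of lowest p in the list, averaged 3.25 CPM in PGR-A OE and 4.79 CPM in PGR-B OE, against 8.72 CPM in control. Of 11 markers tested, 6 were positive in each overexpression group against control, and edgeR called 0. Of 8 brown fat markers, a tissue that also uses these muscle forms, the defining gene Ucp1 lay between 0 and 0.0642 CPM, Dio2 between 14.4 and 45.3, Cidea between 1.34 and 7.99 and Pparg between 2.17 and 3.58 CPM. They summed to 22.4 to 44.3 CPM in PGR-A OE and 21.1 to 51.3 CPM in PGR-B OE, against 35.9 to 40.1 CPM in control. The part of either tissue in these levels was not tested.

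Of the isoforms outside striated muscle, Cox4i2, Cox6b2 and Ndufa4l2 were measurable but the minor part of their pairs. Cox4i2, a form of subunit 4 best known from lung and from low oxygen, made up 0.960 to 1.23% of the Cox4i1 and Cox4i2 sum per length in PGR-A OE and 0.727 to 1.63% in PGR-B OE, against 0.672 to 1.19% in control. Cox6b2, best known from testis, made up 2.94 to 3.503% beside Cox6b1 in PGR-A OE and 2.59 to 5.54% in PGR-B OE, against 2.74 to 4.19% in control. Ndufa4l2, a relative of Ndufa4 induced by hypoxia-inducible factor, made up 4.68 to 5.64% of the pair in PGR-A OE and 4.83 to 6.46% in PGR-B OE, against 3.21 to 4.64% in control. In the last pair the shares of each overexpression group lay wholly above those of control, though in PGR-A OE by as little as 4.68% against 4.64%. Both groups were set against the same control libraries, so the 2 results are not independent. Levels of single genes did not overlap with control for 10.6% of all genes in PGR-A OE and 5.67% in PGR-B OE. Ratios of gene pairs other than these isoforms were not computed. The shares depend on the lengths: by the annotation lengths Ndufa4l2 made up 10.7 to 12.8% in PGR-A OE and 11.04 to 14.4% in PGR-B OE, against 7.499 to 10.6% in control, and Cox4i2 1.78 to 2.27% in PGR-A OE and 1.35 to 3.00% in PGR-B OE, against 1.25 to 2.21% in control. Cox8c and Cox7b2, both known from testis, had no count in any of the 12 libraries.

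**Figure D2:**
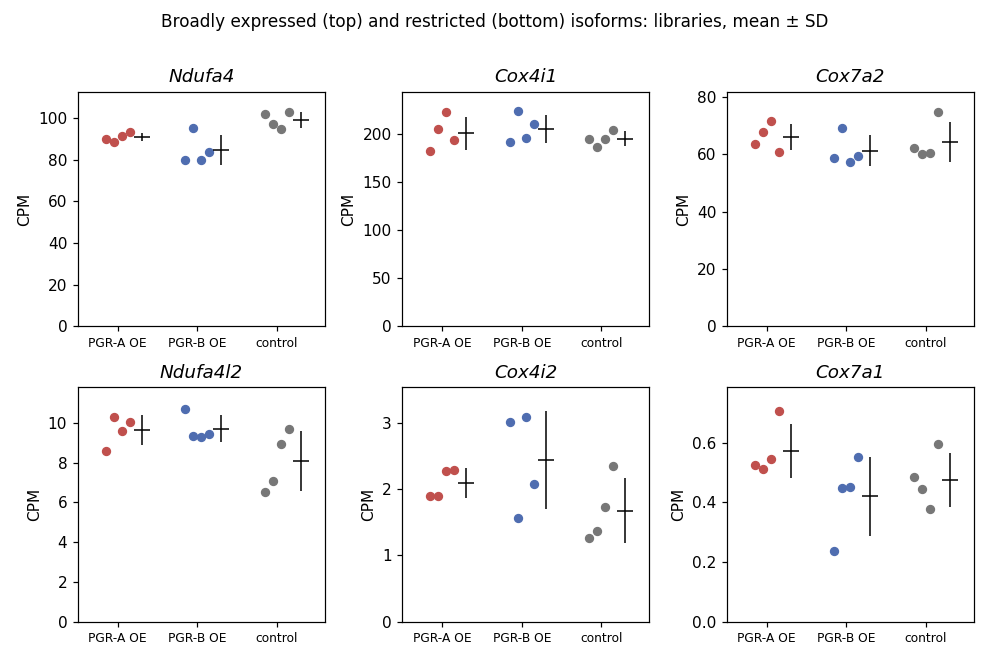
Level in CPM (vertical axes from 0) of 3 broadly expressed genes (top row) and a restricted relative of each (bottom row); points are libraries and the dash with its bar is the mean ± SD of 4 libraries. Ndufa4 lies below the control libraries in PGR-A OE, and Cox7a1 stays under 1 CPM in every library.

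No respiratory chain gene passed the test in PGR-A OE against control, and most differences had narrow intervals. Against control, 0 of the 62 genes passed a threshold of 0.05 in edgeR's quasi-likelihood test, adjusted over all genes by Benjamini-Hochberg, where 0.655% of all genes tested did. DESeq2 and limma voom also called 0 of the 62, against 3.62% and 0.611% of all genes. At an unadjusted p under 0.05, edgeR counted 1 of the 62 (1.61%), against 15.4% of all genes. The fitted log2 differences had a median of -0.0048 over the 62 genes and 0.00051 over all genes tested, and 30 of the 62 were positive. For 60 of the 62, the 95% interval lay within 1.5-fold in either direction; Cox4i2 and Cox7a1 were the exceptions. By complex, 18 of 36 were positive in complex I (median 0.0059), 1 of 4 in complex II (-0.044), 4 of 8 in complex III (-0.018) and 7 of 14 in complex IV (-0.0073). Without replicate 4 of PGR-A OE and of control, 43 of the 62 were positive, with a median of 0.055, and again 0 passed. By complex, 24 of 36 were then positive in complex I (median 0.065), 3 of 4 in complex II (0.064), 6 of 8 in complex III (0.023) and 10 of 14 in complex IV (0.039), so the sign of the median turned in complexes II, III and IV. With 1 library left out, 22 to 38 of the 62 were positive. The summed smooth muscle markers lay higher in every PGR-A OE library than in any control library, with all 12 markers positive and 0 called. The sum of 8 fibroblast markers was 40120 to 51710 CPM in PGR-A OE, against 34850 to 36720 CPM in control, with 6 of 8 positive and 1 called. Most of that sum came from Col1a1 (average 15300 against 11600 CPM), Col1a2 (13300 against 10500) and Col3a1 (12900 against 10500). Col15a1 (920 against 494) and Dpt (449 against 362) also averaged higher. Dcn (1340 against 1350), Lum (481 against 476) and Pdgfra (204 against 219) differed little. The part of these marker lists in the small differences of the 62 genes was not tested.

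In complex I, Ndufa4 (chromosome 6, 11900292 to 11907497) had 89.9, 88.6, 91.2 and 93.1 CPM in PGR-A OE, against 102, 97.2, 94.6 and 103 CPM in control. All 4 PGR-A OE libraries were lower than any control library, yet the log2 difference of -0.13 (SE 0.066, 95% interval -0.27 to 0.015) did not pass, at an adjusted p of 0.372 by edgeR. Such a lack of overlap was found for 3 of the 62 genes (4.84%) and for 10.6% of all genes. Ndufa3 (chromosome 7, 3617373 to 3620327), a small accessory subunit, had the lowest p of the 62, at 23.6, 23.6, 27.3 and 22.2 CPM in PGR-A OE, against 29.5, 26.9, 27.8 and 27.2 CPM in control. PGR-A OE replicate 3 lay among the control libraries, and the log2 difference was -0.20 (SE 0.076, edgeR adjusted p = 0.242); Ndufa3 overlaps Tfpt. On the positive side, Ndufa4l2 had 8.56, 10.3, 9.57 and 10.1 CPM in PGR-A OE, against 6.54, 7.09, 8.93 and 9.71 CPM in control, a log2 difference of 0.25 (SE 0.13, edgeR adjusted p = 0.369). Control replicates 3 and 4 reached into the range of the PGR-A OE libraries. Ndufa4l2 overlaps Shmt2. Pericytes are known to express Ndufa4l2, and 7 pericyte markers summed to 658 to 789 CPM in PGR-A OE, against 611 to 735 CPM in control. These sums overlapped, yet 5 of the 7 markers were positive (median log2 difference 0.289) and 1 was called by edgeR. The part of these markers was not tested. The accessory subunits Ndufa8 and Ndufb7 followed, at log2 differences of 0.18 (SE 0.087, edgeR adjusted p = 0.336) and 0.18 (SE 0.10, edgeR adjusted p = 0.439). Ndufb4, the lowest of the complex, differed by -0.12 on the log2 scale (SE 0.16).

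No gene of succinate dehydrogenase, which is also an enzyme of the citric acid cycle, passed in PGR-A OE against control. Sdha, the flavoprotein that oxidises succinate, had 197, 205, 208 and 194 CPM in PGR-A OE, against 204, 209, 204 and 214 CPM in control. Its log2 difference was -0.049 (95% interval -0.17 to 0.074, edgeR adjusted p = 0.721), and its libraries interleaved. The other log2 differences were -0.039 for Sdhb (SE 0.091), 0.044 for Sdhc (SE 0.087) and -0.097 for Sdhd (SE 0.15), a membrane anchor like Sdhc. Without replicate 4 of PGR-A OE and of control, Sdhb stood at 0.086 and Sdhd at 0.041. In complex III, Uqcrfs1, the Rieske iron-sulphur protein, differed by -0.13 (SE 0.12), and by 0.0073 without those 2 libraries, the core protein Uqcrc1, the most counted gene of the complex, by 0.059 (SE 0.080), and Uqcrq, the least counted, by 0.038 (SE 0.10). None of these passed.

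In complex IV, Cox7b (chromosome X, 106015700 to 106022450), a small accessory subunit, was another gene without overlap, at 111, 119.6, 129 and 98.3 CPM in PGR-A OE, against 130.2, 129.9, 131 and 137 CPM in control. PGR-A OE replicate 3 lay just below the lowest control library, at 128.6 against 129.9 CPM. The log2 difference was -0.21 (SE 0.11, edgeR adjusted p = 0.396), and -0.12 (SE 0.12) without replicate 4 of PGR-A OE and of control. Cox4i2 had 1.89, 1.89, 2.28 and 2.29 CPM in PGR-A OE, against 1.26, 1.37, 1.74 and 2.35 CPM in control, where replicate 4 was the highest of these libraries. Its log2 difference of 0.31 (95% interval -0.24 to 0.87, edgeR adjusted p = 0.587) was the largest of the 62 in size and among the least precise. Cox7a1 differed by 0.26 (interval -0.33 to 0.85). The abundant forms were closer to 0: the log2 differences were 0.041 for Cox4i1, 0.059 for Cox6a1, 0.034 for Cox7a2, -0.035 for Cox8a and -0.052 for Cox7a2l, a factor that joins complexes III and IV into supercomplexes.

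**Figure D3:**
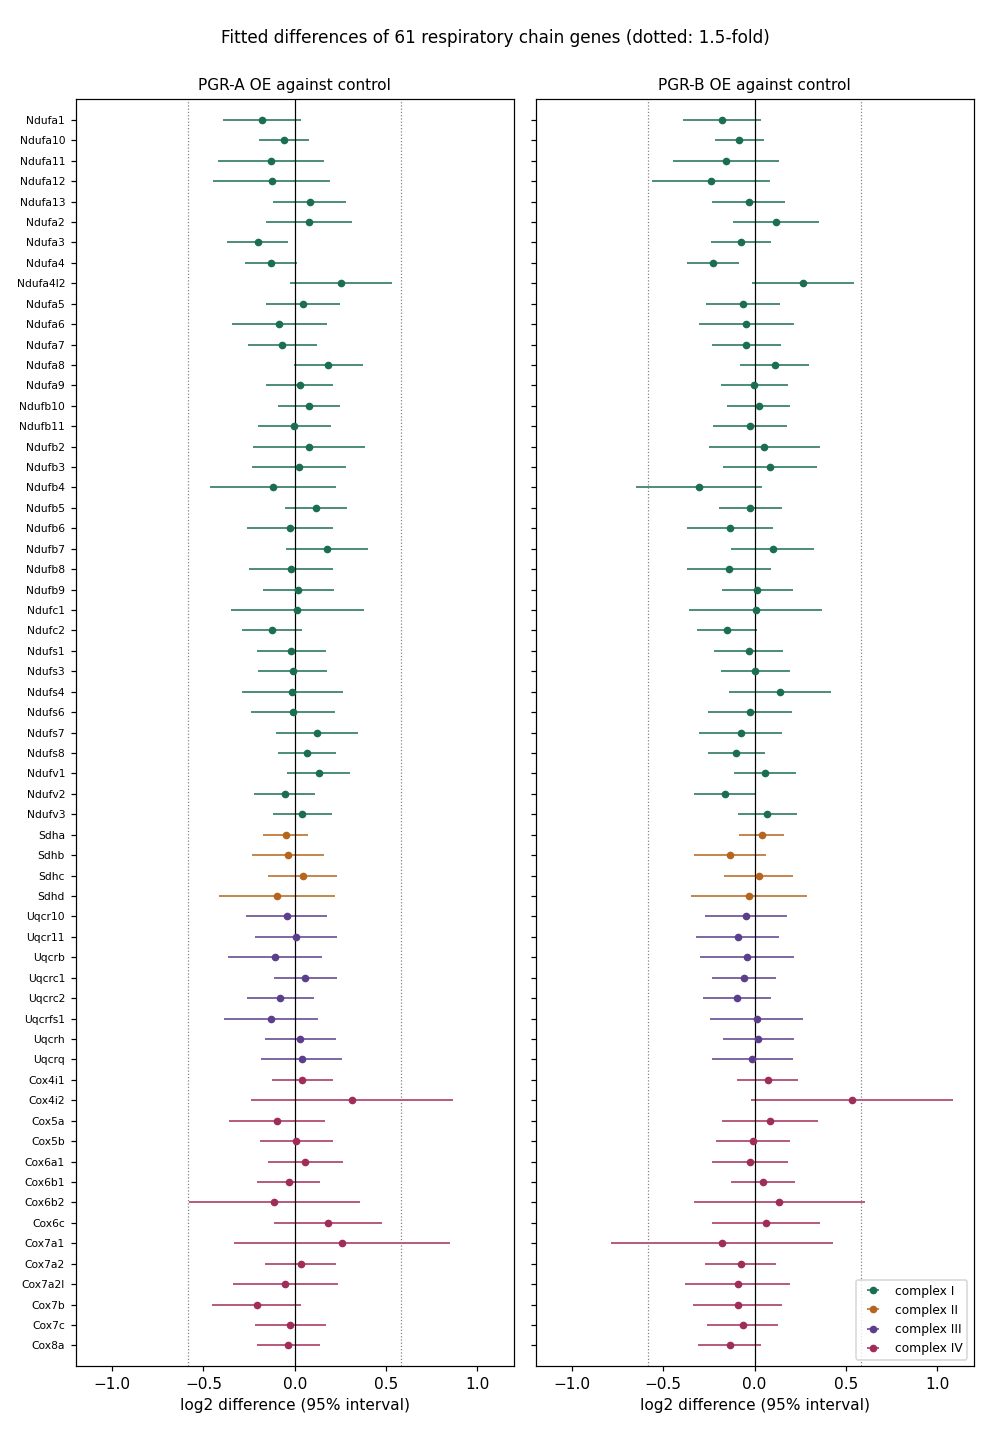
Fitted log2 differences of 61 of the 62 genes tested (points) with 95% intervals from edgeR's quasi-likelihood fit (bars), PGR-A OE against control on the left and PGR-B OE against control on the right; dotted lines mark 1.5-fold. The widest intervals belong to Cox4i2 and Cox7a1, and nearly all others stay inside the dotted lines.

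In PGR-B OE, too, no respiratory chain gene passed the test against control, and Ndufa4 had the lowest p. By the same edgeR test 0 of the 62 genes passed against control, where 0.308% of all genes did. DESeq2 and limma voom again called 0, against 1.42% and 0.244% of all genes. At an unadjusted p under 0.05, edgeR counted 1 of the 62 (1.61%), against 9.28% of all genes, and 0 of the 62 had groups that did not overlap, against 5.67% of all genes. The median log2 difference was -0.029 over the 62 genes and -0.0052 over all genes, with 24 of the 62 positive. Without replicate 4 of PGR-A OE and of control, 35 of the 62 were positive and the median was 0.014, and with 1 library left out 16 to 35 were positive. The 95% interval lay within 1.5-fold in either direction for 58 of the 62, the others being Ndufb4, Cox4i2, Cox6b2 and Cox7a1. By complex, 14 of 36 were positive in complex I (median -0.029), 2 of 4 in complex II (-0.0038), 2 of 8 in complex III (-0.044) and 6 of 14 in complex IV (-0.018). Without those 2 libraries the counts were 19 of 36 (0.0165), 3 of 4 (0.045), 4 of 8 (0.0077) and 9 of 14 (0.0081), with the sign of each median turned.

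Ndufa4 had 79.9, 95, 79.8 and 83.6 CPM in PGR-B OE, against 102, 97.2, 94.6 and 103 CPM in control. Only PGR-B OE replicate 2 reached the control range, where control replicate 3 was the lowest. The log2 difference was -0.23 (SE 0.066, 95% interval -0.37 to -0.086), a fold of 0.853, with an unadjusted p of 0.00446 and an adjusted p of 0.268 by edgeR. DESeq2 gave an adjusted p of 0.0607, the lowest of any of the 62 genes under any of the settings tried, and without PGR-B OE replicate 2 edgeR gave 0.0826. PGR-A OE and PGR-B OE were set against the same control libraries, so the lower Ndufa4 values in each are not independent of each other. Ndufa4l2 had 10.7, 9.35, 9.28 and 9.46 CPM in PGR-B OE, against 6.54, 7.09, 8.93 and 9.71 CPM in control, where only replicate 4 lay among the PGR-B OE libraries. Its log2 difference was 0.26 (SE 0.13, edgeR adjusted p = 0.565). Summed pericyte markers came to 629 to 768 CPM in PGR-B OE, against 611 to 735 CPM in control, with 4 of 7 positive and 0 called by edgeR. Fibroblast markers came to 41300 to 51560 CPM in PGR-B OE, against 34850 to 36720 CPM in control, with 6 of 8 positive and 0 called by edgeR (4 at an unadjusted p under 0.05). Most of that sum was again Col1a1 (average 15900 against 11600 CPM), Col1a2 (14400 against 10500) and Col3a1 (13700 against 10500). Col15a1 averaged 832 against 494, Dpt 389 against 362, Dcn 1380 against 1350, Lum 433 against 476 and Pdgfra 210 against 219 CPM. The part of either list was not tested.

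Cox4i2 had the largest difference in size, at 3.01, 1.56, 3.09 and 2.08 CPM in PGR-B OE, against 1.26, 1.37, 1.74 and 2.35 CPM in control. PGR-B OE replicates 1 and 3 were above every control library, and replicates 2 and 4 were not. The log2 difference was 0.54 (95% interval -0.017 to 1.09, edgeR adjusted p = 0.555), and 0.75 (edgeR adjusted p = 0.285) without replicate 4 of PGR-A OE and of control. Among other complex I genes, the core subunit Ndufv2 had 65.8, 78.8, 61.8 and 70.2 CPM in PGR-B OE, against 71.2, 78.1, 79.5 and 80.9 CPM in control, a log2 difference of -0.16 (SE 0.077, edgeR adjusted p = 0.556). PGR-B OE replicate 2 lay among the control libraries and the other 3 lay below them. The accessory subunits Ndufc2 and Ndufa8 differed by -0.15 (SE 0.076) and 0.11 (SE 0.087). Ndufb4 had 4.07, 4.02, 3.13 and 3.43 CPM in PGR-B OE, against 5.16, 3.94, 4.33 and 4.64 CPM in control, a log2 difference of -0.30 (SE 0.16, edgeR adjusted p = 0.591). PGR-B OE replicates 3 and 4 were below every control library, and replicates 1 and 2 were not. The annotation holds a copy of it, Ndufb4c, identical over 390 bases, so its count is uncertain.

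Sdhd had 92.8, 145, 91.2 and 98.1 CPM in PGR-B OE, against 112, 103, 98.2 and 123 CPM in control, so that PGR-B OE replicate 2 was the highest of all and the other PGR-B OE libraries were below the lowest control library. The log2 differences in complex II were 0.040 for Sdha (SE 0.057), -0.13 for Sdhb (SE 0.091), 0.023 for Sdhc (SE 0.087) and -0.031 for Sdhd (SE 0.15). In complex III they were 0.013 for Uqcrfs1 (SE 0.12), -0.056 for Uqcrc1 (SE 0.080) and -0.013 for Uqcrq (SE 0.10). In complex IV they were 0.073 for Cox4i1, -0.027 for Cox6a1, -0.074 for Cox7a2, -0.14 for Cox8a, -0.093 for Cox7a2l and -0.18 for Cox7a1 (interval -0.79 to 0.43). Without replicate 4 of PGR-A OE and of control, Sdhd stood at 0.034, Uqcrq at 0.019 and Cox7a2 at 0.0081. None of these passed.

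The receptor isoforms were also set directly against each other. Of the 62 genes, 0 passed between PGR-B OE and PGR-A OE by edgeR, DESeq2 or limma voom, where these called 0.116%, 0.81% and 0.135% of all genes. At an unadjusted p under 0.05, edgeR counted 1 of the 62 (1.61%), against 8.04% of all genes. Groups without overlap numbered 0 of 62, against 3.85% of all genes. The median log2 difference was -0.024, against 0.0045 over all genes, and 20 of the 62 were positive: 10 of 36 in complex I (median -0.027), 2 of 4 in complex II (0.0225), 2 of 8 in complex III (-0.013) and 6 of 14 in complex IV (-0.029). The median was -0.083 without PGR-A OE replicate 1 (13 positive), 0.019 without PGR-A OE replicate 3 (38 positive) and -0.042 without replicate 4 of PGR-A OE and of control (22 positive). Without those last 2 libraries, complex II had 1 of 4 positive (-0.0285). Marker lists also differed with all 12 libraries: 0 of 12 smooth muscle (median -0.405), 0 of 8 endothelial (-0.163) and 1 of 7 pericyte markers (-0.249) were positive. Those positive were 5 of 8 for fibroblasts, 6 of 8 for epithelium and 7 of 9 for leukocytes. The part of cell types in the differences of the 62 genes was not tested. The 95% interval lay within 1.5-fold for 59 of the 62, the others being Cox4i2, Cox6b2 and Cox7a1. The gene of lowest p was Ndufs8, a core subunit whose iron-sulphur clusters pass electrons towards ubiquinone, with 39.3, 39.2, 37.5 and 39.0 CPM in PGR-B OE, against 43.6, 43.9, 47.6 and 38.7 CPM in PGR-A OE. PGR-A OE replicate 4 lay inside the PGR-B OE range, and the other 3 lay above it. The log2 difference was -0.16 (SE 0.073, edgeR adjusted p = 0.619), and -0.21 (edgeR adjusted p = 0.309) without replicate 4 of PGR-A OE and of control. Its neighbour in the complex, Ndufs7, had 33.0, 31.7, 33.9 and 35.8 CPM in PGR-B OE, against 36.7, 39.8, 44.4 and 33.0 CPM in PGR-A OE, a log2 difference of -0.20 (SE 0.10, edgeR adjusted p = 0.689). Here 3 of the 4 PGR-A OE libraries lay above every PGR-B OE library.

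Ndufb5, an accessory subunit, differed by -0.14 (SE 0.079), Ndufa3 by 0.13 (SE 0.076) and Cox5a, a small subunit on the matrix side of complex IV, by 0.18 (SE 0.12) on the log2 scale between PGR-B OE and PGR-A OE. Ndufb5 overlaps Mrpl47, with which it shares 216 identical bases. Cox7a1 had the largest log2 difference in size, -0.44 (interval -1.04 to 0.16), from levels under 1 CPM. Ndufa4 differed by -0.10 (interval -0.24 to 0.042), Ndufa4l2 by 0.013 (-0.27 to 0.29) and Cox4i2 by 0.22 (-0.33 to 0.77). Among the other named genes the log2 differences were 0.089 for Sdha, -0.094 for Sdhb, -0.021 for Sdhc, 0.066 for Sdhd, 0.14 for Uqcrfs1, -0.11 for Uqcrc1, -0.051 for Uqcrq, -0.18 for Ndufb4, 0.032 for Cox4i1, -0.086 for Cox6a1, -0.11 for Cox7a2, -0.10 for Cox8a and -0.041 for Cox7a2l, with SEs between 0.057 (Sdha) and 0.16 (Ndufb4). Without replicate 4 of PGR-A OE and of control, Sdhd stood at -0.0071 and Cox7a2l at 0.0083.

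Most of the 62 genes varied less between libraries of a group than the median gene, and much of that variation was shared. The SD of log2 level within groups had a median of 0.134 over the 62 genes, against 0.188 over all genes tested, and 50 of the 62 lay below that median of all genes. Sdha was the steadiest, at an SD of 0.0469, and Cox4i2 the least steady, at 0.358. Cox7a1 (0.315) and Cox6b2 (0.312), also genes of low counts, came after Cox4i2. The 62 genes were more abundant than most, and SDs were not compared at like abundance. After removal of group means, 59 of the 62 correlated positively with the mean of the others, with a median Pearson r of 0.591 over the 12 libraries, which is a description, since all genes of a library share its depth and composition. The same r was not computed for genes outside the 62. Cox4i1 had the highest r, at 0.933, and Ndufb4 and Cox6b2 were among the 3 below 0. A first component held 30.8% and a second 25.2% of the variance of these deviations. PGR-B OE replicate 2 (1.33) and control replicate 4 (0.998) were highest on the first, with PGR-B OE replicate 3 (-0.696) and control replicate 2 (-0.684) lowest, so the extremes came from the same groups. The weights on it were highest for Ndufc1, Sdhd (whose r was 0.406), Ndufb2, Ndufs4 and Cox5a, genes of complexes I, II and IV. Ndufc1, a small accessory subunit, had 15.2, 22.2, 12.8 and 15.4 CPM in PGR-B OE, against 16.7, 13.8, 14.1 and 20.8 CPM in control, and was highest in PGR-B OE replicate 2 and control replicate 4. On the second component PGR-A OE replicate 1 (1.28) and PGR-A OE replicate 3 (-1.02) lay at the ends.

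**Figure D4:**
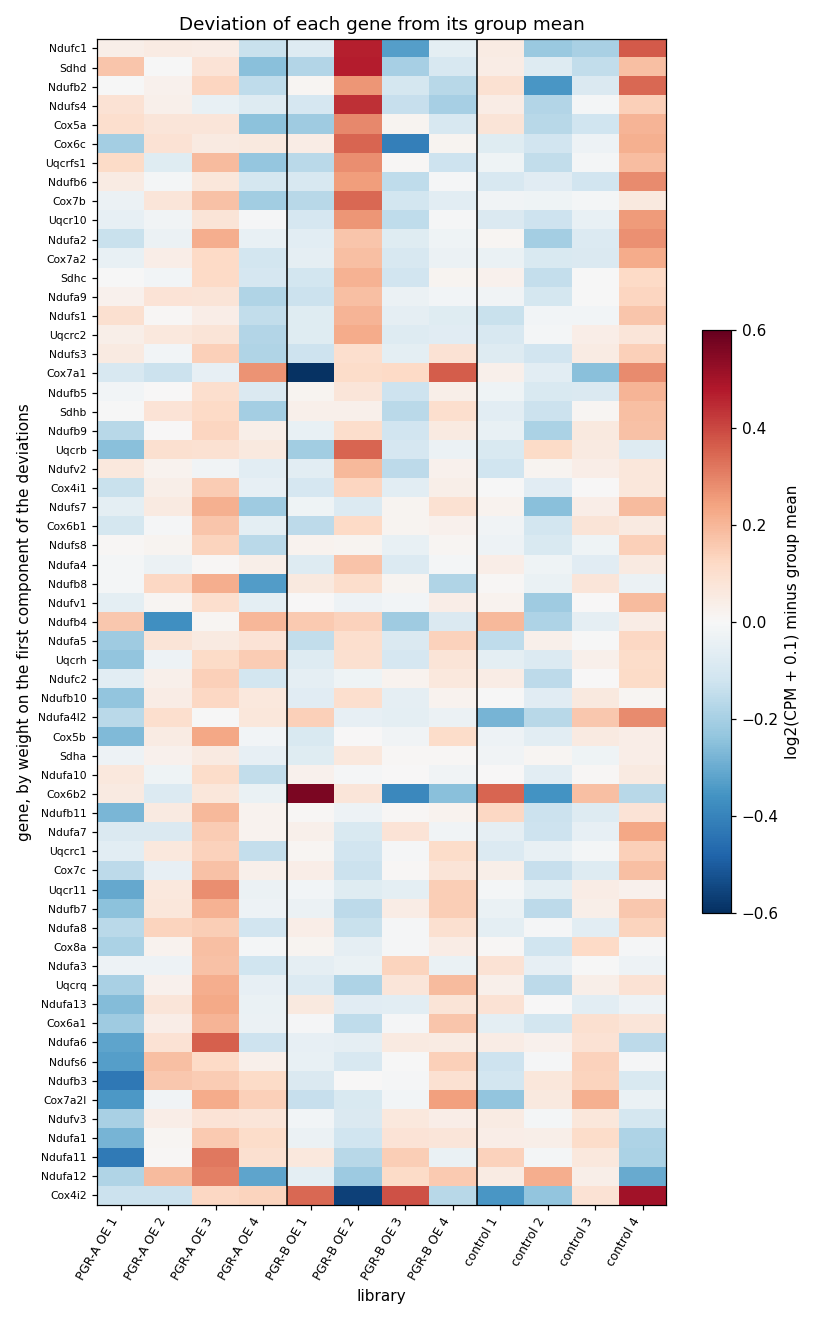
Deviation of log2(CPM + 0.1) from the group mean for 61 of the 62 genes (rows, by weight on the first component) in the 12 libraries (columns; vertical lines part the groups); red is above and blue below the group mean. PGR-B OE replicate 2 and control replicate 4 are red over the upper rows, and the other libraries of those 2 groups are mostly pale or blue there.

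As a share of all counts, the 67 genes together took 0.418 to 0.447% of a library in PGR-A OE (mean 0.436 ± 0.0131%) and 0.390 to 0.439% in PGR-B OE (0.420 ± 0.0207%), against 0.406 to 0.473% in control (0.429 ± 0.0312%; SD, n = 4 each). The groups overlapped, with PGR-B OE replicate 3 the lowest library and control replicate 4 the highest. Complex I took 0.183 ± 0.0053% in PGR-A OE and 0.173 ± 0.0063% in PGR-B OE, against 0.178 ± 0.0114% in control. Complex IV took 0.129 ± 0.0068% in PGR-A OE and 0.126 ± 0.0077% in PGR-B OE, against 0.127 ± 0.0098% in control.

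Of 90 further genes tested that work beside the complexes, edgeR and limma voom called 0 in each comparison. At an unadjusted p under 0.05, edgeR counted 4 of the 90 for PGR-A OE and 7 for PGR-B OE, each set against control, and 2 between the isoforms (4.44%, 7.78% and 2.22%), where all genes gave 15.4%, 9.28% and 8.04%. DESeq2 called Gpd2 against control in both overexpression groups and Cox18 in PGR-B OE, and 0 between the isoforms (1.11%, 2.22% and 0% of the 90), against 3.62%, 1.42% and 0.81% of all genes. The 90 comprised 15 ATP synthase genes, 40 of 42 assembly factor genes, 7 genes of electron carriers and entry, 13 citric acid cycle genes and 15 of 16 regulators of mitochondrial biogenesis. In PGR-A OE against control, 5 of 15 ATP synthase genes were positive (median log2 difference -0.024), 18 of 40 assembly factors (-0.024), 2 of 7 carrier genes (-0.11), 7 of 13 cycle genes (0.011) and 7 of 15 regulators (-0.015). In PGR-B OE against control these counts were 3 of 15 (-0.078), 22 of 40 (0.022), 2 of 7 (-0.016), 4 of 13 (-0.0435) and 6 of 15 (-0.061), and between PGR-B OE and PGR-A OE 6 of 15 (-0.016), 27 of 40 (0.073), 5 of 7 (0.038), 2 of 13 (-0.044) and 6 of 15 (-0.0425). The largest difference was that of Gpd2, the mitochondrial glycerol-3-phosphate dehydrogenase, which feeds electrons to ubiquinone. It averaged 26.9 ± 2.29 CPM in PGR-A OE and 27.6 ± 2.73 CPM in PGR-B OE, against 42.5 ± 11.3 CPM in control (SD, n = 4 each). The log2 differences were -0.66 (SE 0.17, edgeR adjusted p = 0.109) in PGR-A OE and -0.63 (SE 0.17, edgeR adjusted p = 0.229) in PGR-B OE, which share the control libraries.

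In PGR-A OE against control, Yy1 differed by -0.25 (edgeR adjusted p = 0.161), Ndufaf4, a complex I assembly factor, by -0.27 (edgeR adjusted p = 0.231), the complex II assembly factor Sdhaf1 by 0.23, the coactivator Ppargc1b by 0.33, Etfdh, which passes electrons from fatty acid oxidation, by -0.16, Suclg2 and Idh3g of the citric acid cycle by -0.20 and -0.11, and Atp5g1 and Atp5g3 of ATP synthase by -0.18 and -0.12 on the log2 scale. In PGR-B OE against control, Cox18, which helps insert a complex IV subunit into the membrane, differed by 0.41 (edgeR adjusted p = 0.236), Sdhaf1 by 0.31, Atp5k and Atp5g3 by -0.21 and -0.11, Dhodh by 0.20, citrate synthase (Cs) and Idh3g by -0.14 each, Ppara by 0.37 and Gabpa by -0.14. Between PGR-B OE and PGR-A OE, Cox18 differed by 0.35 (edgeR adjusted p = 0.451), Timmdc1 by 0.18, Etfdh by 0.15, Cycs (cytochrome c) by 0.18, Fh1 by -0.10, Atp5k and Atp5d by -0.11 and -0.14, Yy1 by 0.15 and Ppargc1b by -0.31. None of these passed by edgeR. Subunits encoded in the mitochondrial genome were not analysed here.

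For some genes the count itself is uncertain, because reads can be shared with a near-identical stretch of another annotated gene. Of the 67, 15 had such a stretch of at least 150 bases at 97% identity or more in another gene's transcripts, among them Cox4i1 with the overlapping gene Emc8, Cox5b, Cox7c, Ndufa12, Uqcrb and Ndufs5. Ndufs5, an accessory complex I subunit, had no count in any library, while BC002163, which matches it at 99.4% over 319 bases, had 11 to 279 counts per library.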

How the data were processed

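RNA of 12 libraries was counted, 4 per group, with group and replicate number taken from the sample titles. The deposited values are raw read counts, whole numbers in 1 table, with a length for each gene. The submitters' processing notes list STAR 2.7.0f, Bowtie2 2.2.5, Subread 1.6.4 (featureCounts) and DESeq2 on mm10 (GRCm38). What each tool did, and how shared reads and strand were handled, is not given in the sources used here, so counts of overlapping or near-identical genes are uncertain. Library totals of 31872534 to 33078483 counts set the precision, which is low for genes under 1 CPM.

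The analysis used edgeR 4.0.16 in R 4.3.3: filterByExpr left 15561 of 24964 genes, libraries were scaled by TMM, and the 12 libraries entered 1 robust quasi-likelihood fit. The fit was also run on simulated counts with changes of 1.5-fold or more in PGR-A OE, which cannot show how it does on smaller differences. P-values of the 3 comparisons were adjusted (Benjamini-Hochberg, all genes tested) and held to a threshold of 0.05. CPM uses the scaled library sizes, and levels per kilobase use the deposited lengths in place of the planned annotation lengths, which were tried as an alternative; that alternative for single complexes and isoform shares, and counts by complex without 2 libraries, were chosen after seeing the data. Other alternatives were DESeq2 1.42.0, limma 3.58.1 (voom), RLE size factors, no filter on low counts, only the 8 libraries compared, a replicate block and leaving out libraries. No pair of libraries within a group looked like 1 library deposited a second time, and pairs between groups were not checked. Positions and overlaps came from GENCODE M21 (GRCm38), near-identical stretches from BLAST 2.17.0 and promoters from RefSeq (GRCm38.p6).

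The genes and lists were chosen with earlier results of these data known. The genes named are 16 chosen for their role (isoform pairs, Cox7a2l, complex II and Uqcrfs1), the 3 of lowest p in each direction, the most and least counted of each complex, and the 2 of lowest p in each other list. Genes without overlap between groups, Cox6b2 and genes of extreme level, spread or weight were named after their values were seen. Some genes that these rules pick are not reported here by name, though counts and medians include them. Red blood cell, leukocyte, endothelium, epithelium, decidua, trophoblast, brown fat, striated and smooth muscle marker lists had 0 genes called by edgeR in any comparison. Pericyte and fibroblast markers had 1 gene called each, Cspg4 and Col15a1, higher in PGR-A OE than in control. The lists were short, and edgeR called 0.655%, 0.308% and 0.116% of all genes, so 0 calls do not show that levels were alike. Only 2 of 6 red blood cell, 4 of 9 trophoblast and 4 of 8 brown fat markers were tested. In PGR-A OE against control, 12 of 12 smooth muscle and 8 of 8 endothelium markers were positive.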

Additional observations from a re-analysis of the deposited data

Results flagged for a closer look

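In 108 sets of 4 libraries (a gene or a complex within a group), the highest or lowest library was compared with its distance from the other 3, and 9 stood apart; chance gives about 1 in 20 such sets. Sdhd had 145.3 CPM in PGR-B OE replicate 2, against 91.2 to 98.1 CPM in the other PGR-B OE libraries. Cox5a had 74.2 CPM in PGR-A OE replicate 4, against 92.6 to 94.6 CPM in the others. Ndufa3 (28.97 CPM, against 25.4 to 25.7) and Ndufs8 (37.54 CPM, against 39.0 to 39.3) stood apart in PGR-B OE replicate 3, and Ndufa4l2 in PGR-B OE replicate 1 (10.71 CPM, against 9.28 to 9.46).

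Control replicate 4 stood apart for Cox7a2 (74.89 CPM, against 60.2 to 62.4), for Cox7b (137.4 CPM, against 129.9 to 130.9) and for the share of counts in complex II (0.05545%, against 0.0469 to 0.0475%). Cox8b had 0 CPM in control replicate 2, against 0.0298 to 0.0322 CPM in the other control libraries, which is 0 counts against 1. Control replicate 4 and PGR-A OE replicate 4 were also the ends of the first component over all genes.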

How the results depend on the processing

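Under 16 settings per comparison, 48 fits in all, none of the 62 respiratory chain genes passed. The count of all genes past the threshold in PGR-A OE against control (102) was 564 with DESeq2 and 63 with only the 8 libraries compared, and 32 to 99 when 1 library was left out, with 32, 43, 44 and 56 without control replicate 1, control replicate 2, PGR-A OE replicate 1 and PGR-A OE replicate 2. In PGR-B OE against control (48) it was 221 with DESeq2, 91 without replicate 4 of PGR-A OE and of control, and 22 to 48 when 1 library was left out, with 24, 22 and 28 without control replicates 1 and 2 and PGR-B OE replicate 4. Between PGR-B OE and PGR-A OE (18) it was 126 with DESeq2, 10 with the 8 libraries compared, 38 without replicate 4 of PGR-A OE and of control, and 11 to 31 when 1 library was left out, with 31 without PGR-A OE replicate 4 and 11 without each of PGR-A OE replicates 1 and 2 and PGR-B OE replicate 1. The cause of these changes was not tested. Replicate numbers correlated between -0.257 and 0.190 over same-numbered libraries, so they were not taken to pair them; with the replicate block the counts were 69, 32 and 11 genes and 0 of the 62. The median level per kilobase (65.7) was 39.2 with annotation lengths and 53.9 with no length.

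Some log2 differences of the named genes changed sign. Without replicate 4 of PGR-A OE and of control, PGR-A OE against control gave 0.086 for Sdhb, 0.041 for Sdhd and 0.0073 for Uqcrfs1; PGR-B OE against control gave 0.0081 for Cox7a2, 0.034 for Sdhd and 0.019 for Uqcrq; PGR-B OE against PGR-A OE gave 0.0083 for Cox7a2l and -0.0071 for Sdhd. With 1 library left out, the ranges that crossed 0 in PGR-A OE against control were -0.011 to 0.126 (Cox6a1), -0.0048 to 0.114 (Cox7a2), -0.097 to 0.025 (Cox8a), -0.0090 to 0.085 (Cox4i1), -0.126 to 0.051 (Cox7a2l), -0.079 to 0.025 (Sdhb), -0.00043 to 0.086 (Sdhc) and -0.037 to 0.10 (Uqcrq). In PGR-B OE against control they were -0.081 to 0.026 (Cox6a1), -0.333 to 0.021 (Cox7a1), -0.134 to 0.0057 (Cox7a2), -0.0475 to 0.065 (Sdhc), -0.211 to 0.039 (Sdhd), -0.084 to 0.079 (Uqcrfs1) and -0.077 to 0.049 (Uqcrq). Between PGR-B OE and PGR-A OE they were -0.012 to 0.085 (Cox4i1), -0.039 to 0.049 (Ndufa4l2), -0.143 to 0.037 (Cox7a2l), -0.094 to 0.022 (Sdhc), -0.116 to 0.134 (Sdhd) and -0.117 to 0.027 (Uqcrq). The median over the 62 genes ran from -0.0439 to 0.037, -0.0514 to 0.011 and -0.083 to 0.019 in the 3 comparisons. Counts of 0 to 24 per library limit what can be said of Cox6a2, Cox8b and Cox7a1.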
